A study of Mus musculus with 4 samples.

Results

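The response to ultraviolet B (UVB) of primary mouse keratinocytes labelled p38a-KO was read from 2 of the 4 Affymetrix arrays of the study, 1 of cells that were not irradiated and 1 of cells taken 4 h after 75 mJ/cm2 of UVB. The 2 arrays were identified by sample title, and the response was described over all named genes of the array. These members and the gene lists below were chosen with earlier results of these data known. The cells came from newborn C57BL/6 animals, and the remaining pair of arrays holds WT cells of the same strain with and without the same irradiation. Each of the 4 groups has 1 array, so no difference below has a replicate check or a test, and an additive fit over both genotypes, which would test a shared response and not that of the KO-labelled cells, was not used here. The descriptions of both KO-labelled arrays carry the code K14C, which the labels do not explain, and no promoter, Cre line or deleted exon is spelled out. The labels name no culture kept unirradiated for 4 h and no number of pooled animals, and the time in culture cannot be told apart from the irradiation.

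UVB is absorbed by DNA and joins neighbouring pyrimidines into photoproducts, which nucleotide excision repair removes and which stop RNA polymerase II on the transcribed strand. It also activates stress kinases, among them p38alpha, the product of Mapk14, which phosphorylates the kinases MK2 and MK3 and transcription factors and thereby acts on immediate early genes and on the stability of short-lived inflammatory messages. Keratinocytes are the epithelial cells of the epidermis, where basal cells divide and suprabasal cells build the cornified envelope.

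Mapk14 itself had a signal of 1449 units in unirradiated and 647 in irradiated KO-labelled cells, and of 985 and 293 units in unirradiated and irradiated WT cells, on the brightest of its 6 probe sets. A signal is a MAS5 intensity, which adjusts each probe set for its mismatch probes, and it is set only against the same probe set on another array. The 4 other Mapk14 probe sets that reached the floor gave 419.9 and 146, 210.1 and 66.1, 67.3 and 15.8, and 37.7 and 32.7 units without and with UVB in KO-labelled cells. Mapk14 was thus not lower on the unirradiated KO-labelled array than on the WT array with the brightest probe set, and since the deleted part is not given, these probe sets check nothing about the genotype; the arrays are therefore called KO-labelled throughout.

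On the KO-labelled arrays the median probe set had a signal of 34.5 units without irradiation and 18.7 after UVB, and on the WT arrays 30.3 and 18.7. The floor, below which signals were raised to it, was 24.9 units, which is the median of the 4-array means of all probe sets, and 57.9% and 43.6% of probe sets reached it on the unirradiated and irradiated KO-labelled array. The ratio of the control probe sets at the 3′ end of Gapdh to those at its 5′ end, which goes up where RNA is degraded, was 0.788 and 0.745, that of Actb was 1.14 and 1.13, and that of Tfrc, a dimmer message, was 2.53 and 2.70 (2.37 and 2.68 in WT). The control probe set for the 5′ end of 18S ribosomal RNA was at 83.9 and 1232 units on these 2 arrays; its part in the differences below was not tested. The 18 hybridisation spike-in probe sets, added in equal amount before hybridisation, differed between the 2 KO-labelled arrays by a median log2 value of 0.12 with an SD of 0.10 over probe sets. All 17 keratinocyte markers on the array reached the floor, with Krt5 at 13104 and 12843 units and Krt14 at 12319.8 and 11820.1 units without and with UVB. Markers of other cells were counted by their 4-array mean, and signals were summed over all markers on the array, also those under the floor. All 15 fibroblast markers reached the floor (9381 units without and 6455 with UVB), as did all 11 melanocyte markers (9097 and 5870.4 units). On the irradiated KO-labelled array 1 marker of each of these lists was below it. The floor was reached by 5 of 16 leukocyte and Langerhans markers (513 and 485 units) and 5 of 12 muscle markers (6885 and 5726 units). Of the latter sums Acta2, a smooth muscle and myofibroblast actin, made 6612 and 5529. It was also reached by 2 of 9 endothelial, 3 of 12 Merkel, sweat and hair follicle (639 and 398 units) and 0 of 4 erythroid markers. In WT cells the sums were 5095 and 3851 (fibroblast), 6474 and 5017 (melanocyte) and 4604 and 3649 (muscle). They were 629 and 692 (leukocyte) and 578 and 448 (Merkel list). Fewer cells of a type and less RNA per cell cannot be told apart in these bulk samples, and the part of these cells in the differences below was not tested.

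Most genes had a lower signal after UVB. Of 18194 genes, 11378 reached the floor in the mean of the 4 arrays and are called measured, each read from its brightest probe set. In KO-labelled cells 10664 of them were lower after UVB, 664 were higher and 50 were equal, and the median difference was -0.82 on the log2 scale, a signal 1.76-fold lower. The quartiles were -1.31 and -0.42, and the 1st and 99th percentiles were -2.91 and 0.48. At least 2-fold lower were 4472 genes (39.3% of those measured), 855 were at least 4-fold lower and 93 at least 8-fold lower, while 19 genes (0.167%) were at least 2-fold higher. In WT cells 3958 genes (34.8%) were at least 2-fold lower and 66 (0.580%) higher, with a median of -0.70, and the difference between the genotypes was not tested. How many genes count as higher depended on the scaling: quantile normalization, which gives both arrays the same distribution of signals, put 476 genes (4.17%) 2-fold higher and 933 (8.17%) lower. Median centring divided each array by the median of its probe sets, controls left out, whose 4-array mean reached the floor. It put 1015 (8.88%) higher and 738 (6.46%) lower, and the median gene was then at 0.28, not at 0. The WT counts were 615 (5.39%) higher and 1085 (9.50%) lower with quantile normalization, and 1293 (11.3%) and 842 (7.37%) with centring. Differences are therefore given as deposited and, where marked, relative to the median gene at -0.82.

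**Figure D1:**
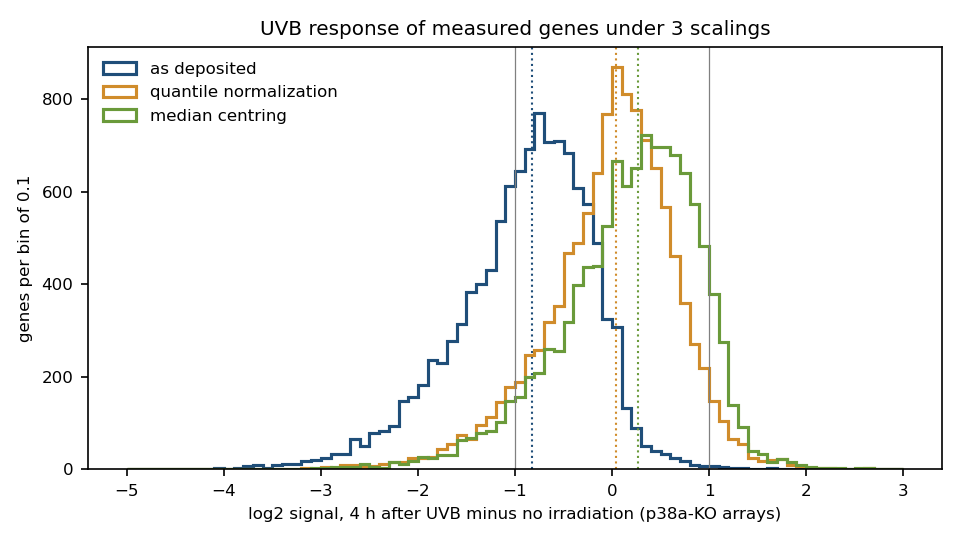
Histogram of the log2 signal after UVB minus that without irradiation on the KO-labelled arrays, over 11378 measured genes in bins of 0.1, as deposited and after 2 rescalings; dotted lines are medians and grey lines mark 2-fold. As deposited the bulk of the genes lies below 0 with a median of -0.82, and both rescalings move the whole distribution upward.

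As deposited, the response differed with the brightness of the gene, though not in one direction. The 2007 genes with a mean signal under 50 units had a median difference of -0.68 (26.6% at least 2-fold lower), and the 1821 genes of 50 to 100 units -1.03. Signals under the floor of 24.9 units were raised to it, which caps the falls of the dimmest genes in advance. The smaller falls under 50 units therefore cannot be read as a weaker response. Genes with a mean signal of 100 to 400 units had a median difference of -1.03 (4250 genes, 51.3% at least 2-fold lower), genes of 400 to 1600 units -0.72 (2400 genes), genes of 1600 to 6400 units -0.36 (776 genes) and the 124 genes over 6400 units -0.02. The brightest genes thus lay near their unirradiated signal. After quantile normalization the medians of all 6 classes lay between 0.00 and 0.08. That scaling gives the arrays the same distribution of signals, which by itself brings medians by brightness close to 0. It therefore cannot tell whether the pattern holds.

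Fos had the largest rise among genes measured above the floor on both arrays. This AP-1 subunit, a classic immediate early gene, went from 303 to 1005 units in KO-labelled cells, a log2 difference of 1.73, and from 465 to a level 3.18-fold higher in WT cells. Ddit4l, an inhibitor of mTORC1 signalling induced by stress, went from 228 to 602 units, 2.64-fold higher (and 3.57-fold in WT), with its 3 probe sets in the same direction. Gadd45a, a growth arrest gene controlled by p53 and by other stress pathways, went from 658 to 1509 units (1.20, and 1.10 in WT). Hbegf, a membrane-anchored ligand of the EGF receptor, went from 591 to 1248 units (1.08), beside a WT difference of 2.51. The sizes for Fos, Ddit4l and Gadd45a in KO-labelled cells were thus close to those in WT cells, and that for Hbegf was the smaller of its pair.

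The other 3 genes with rises of this kind had smaller WT differences. Rem2, a small GTPase that restrains voltage-gated calcium channels, went from 54.9 to 144 units (1.39), with a WT difference of 0.29. ND5, a mitochondrially encoded subunit of respiratory complex I, went from 1279 to 2957 units (1.21), with 0.45 in WT. Gstm3, a glutathione transferase, went from 37.6 to 79.2 units (1.08), with -0.22 in WT. Fos, Gadd45a, Rem2, ND5 and Gstm3 each had 1 probe set that reached the floor, so agreement between probe sets could not be checked. Tsc22d1, a leucine zipper transcription factor, passed 2-fold on its brightest probe set (2298 to 5359 units, 1.22, with 1.90 in WT), but its 6 probe sets above the floor did not agree in direction, so it was named only after its values were seen.

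The other 9 of the 19 risers were below the floor without UVB, so that only a lower bound of the fold can be given. H3f3b, which encodes the replacement histone H3.3, went from 10.7 to 104 units, at least 4.19-fold higher, on its only probe set with 1 symbol. The 932 probe sets with several symbols were left out, and whether any of them reads H3f3b was not examined. The values of this 1 probe set therefore need not stand for the whole H3f3b message. Lce3c and Lce3f, late cornified envelope genes expressed on barrier injury, went from 8.61 to 80.6 and from 10.7 to 64.0 units, at least 3.24-fold and at least 2.57-fold higher; without irradiation both were above the floor in WT cells, at 78.5 and 66.9 units. Smim27, Fcgbp, Diras1 and Cbfa2t3 reached 55.2, 53.1, 51.7 and 50.3 units after UVB from 11.6, 18.8, 10.5 and 13.9 units, with bounds of at least 2.21-fold, 2.13-fold, 2.08-fold and 2.02-fold. The levels of these last 4 after UVB were near the floor, and 3 of them (Smim27, Diras1 and Cbfa2t3) were lower after UVB in WT cells, by -0.93, -0.35 and -0.86. Without irradiation all 4 were above the floor in WT cells, at 56.9, 57.1, 31.7 and 45.3 units. Of all 19 risers, 10 were also at least 2-fold higher in WT cells, 14 were above 0 there and 5 were below; 4 of the 19 are gene models and are not described singly.

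**Figure D2:**
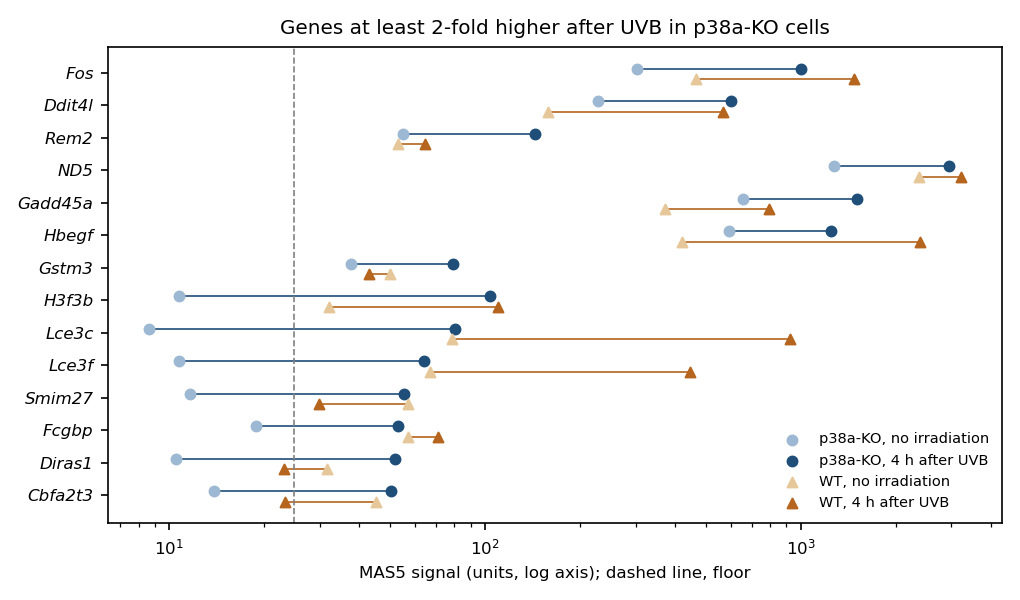
MAS5 signal in units on a log axis for the 14 named genes at least 2-fold higher after UVB on the KO-labelled arrays, without irradiation and 4 h after UVB in KO-labelled (circles) and WT cells (triangles), 1 array per point; the dashed line is the floor of 24.9 units. Fos reaches 1005 units in KO-labelled cells, and the 7 lower genes start below the floor.

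The largest falls were more than 10-fold, and these genes were lower in WT cells too. Iffo2, an intermediate filament family orphan, went from 2639 to 144 units in KO-labelled cells, 18.3-fold lower, and was 23.4-fold lower in WT cells. Wasl, the N-WASP activator of actin nucleation, was 16.8-fold lower (863 to 51.5 units) on its brightest probe set. Sgms1, which makes sphingomyelin, was 16.7-fold lower (1390.2 to 83.3 units), and Tgs1, which adds the trimethylguanosine cap of small nuclear RNAs, 15.1-fold lower (545 to 36.1 units). Bdp1, a subunit of the RNA polymerase III factor TFIIIB, went from 609 to 46.0 units and Lrp6, a Wnt co-receptor, from 331 to 25.3 units. Falls were placed in this group if the probe sets that reached the floor agreed in direction. In Eva1a, Rnf145, Bdp1, Ankrd50, Grhl1, Frmd6, Ptch1 and Tmem51 only 1 probe set did, so agreement could not be checked. All 25 falls in this group were above the floor on both KO-labelled arrays and were lower in WT cells too, by at least 3.72-fold (Klhl2). Their sizes rest on the brightest probe set and on the floor: relative to the median gene all 25 stayed below 0 with the mean over probe sets and with the floor at the 75th percentile, but 16 and 20 of them were then smaller by over 1.5-fold. Tgs1 went from -3.10 to -1.35 and -1.33 under these settings, Sgms1 from -3.24 to -2.08 and -2.68, and Iffo2 from -3.38 to -3.04 and -3.45. Ptch1 went from -2.61 to -0.56 and -0.52, Usp32 from -2.59 to -0.80 and -1.46, and Lrp6 from -2.89 to -2.18 and -0.61. The weakest of the 25 were at -0.56 with the mean over probe sets (Ptch1) and -0.40 with the higher floor (Megf9).

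Others of the 25 were transcription factors, receptors and a cyclin. Grhl1, a grainyhead transcription factor of desmosomal genes, went from 947 to 74.7 units (-3.66, and -2.90 in WT). Klf3, a transcriptional repressor of the Krueppel-like family, went from 1345 to 109 units (-3.62) with 6 probe sets above the floor in the same direction. Gas1 and Ptch1, a co-receptor and the receptor of Hedgehog ligands, went from 1116 to 93.4 (-3.58) and from 312 to 29.0 units (-3.43). Ccnf, the F-box cyclin F, went from 491 to 43.1 units, and Usp32, a ubiquitin-specific protease, from 598 to 56.5 units.

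A second group of falls ended below the floor, which gives bounds. Rapgef2, an exchange factor for Rap GTPases, went from 536 to 12.7 units, at least 21.5-fold lower. Dcp1a, of the mRNA decapping complex, went from 331 to 14.7 units, at least 13.3-fold lower, and Irs1, the insulin receptor substrate, from 315 to 13.8 units, at least 12.7-fold lower. Casp8ap2, needed for histone mRNA processing, went from 312 to 23.8 units, Exo1, an exonuclease of DNA repair, from 280.2 to 21.3, and Gli2, a transcription factor of the Hedgehog pathway, from 269 to 10.5 units. Of the 4472 genes at least 2-fold lower, 578 ended below the floor and 3894 were above it on both arrays.

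The start regions of the most raised and most lowered genes differed in composition. Promoters were taken from RefSeq (assembly GRCm38.p6) for the 7334 measured genes with exactly 1 entry there, 250 bases before to 50 bases after the transcript start. The median promoter held 21.0 CG dinucleotides, against 15.0 in the 100 genes with the highest differences and 28.0 in the 100 with the lowest, and the median GC content was 61.3%, 58.3% and 66.7%. The TATA-box letters TATAAA, searched on both strands and anywhere in the window, were in 7.25% of all 7334 promoters, in 19.0% of the 100 highest and in 3.0% of the 100 lowest. The AP-1 letters TGANTCA were in 4.51%, 7.0% and 2.0%, the CRE letters TGACGTCA in 3.37%, 2.0% and 3.0%, the NF-kB site in 0.423%, 2.0% and 1.0%, and the CArG box, the site of serum response factor, in 1.34%, 0% and 2.0%. N stands for any base, no 2 of these motifs were required to be apart, and a match is not a bound site.

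To show these differences, the 250 bases before the start are printed for the 2 largest rises and the 2 largest falls among genes above the floor on both arrays with a single promoter in the table, 5′ to 3′ on the strand of the gene, with CG dinucleotides and TATAAA in capitals. Fos lies at chr12:85473640-85473889 on the plus strand and holds 15 CG dinucleotides and TATAAA beginning 33 bases before the start. Ddit4l, at chr3:137623422-137623671 on the plus strand, holds 10 CG dinucleotides; its TATAAA begins at base 36 after the annotated start, outside the printed stretch. Wasl, at chr6:24664996-24665245 on the minus strand, and Eva1a, a lysosomal and endoplasmic reticulum protein, at chr6:82041378-82041627 on the plus strand, hold 28 and 18 CG dinucleotides and no TATAAA.
Fos: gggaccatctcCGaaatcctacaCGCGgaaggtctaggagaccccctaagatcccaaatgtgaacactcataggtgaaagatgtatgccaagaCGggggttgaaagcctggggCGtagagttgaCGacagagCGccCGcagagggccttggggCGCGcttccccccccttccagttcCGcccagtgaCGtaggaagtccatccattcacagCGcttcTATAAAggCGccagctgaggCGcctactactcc
Ddit4l: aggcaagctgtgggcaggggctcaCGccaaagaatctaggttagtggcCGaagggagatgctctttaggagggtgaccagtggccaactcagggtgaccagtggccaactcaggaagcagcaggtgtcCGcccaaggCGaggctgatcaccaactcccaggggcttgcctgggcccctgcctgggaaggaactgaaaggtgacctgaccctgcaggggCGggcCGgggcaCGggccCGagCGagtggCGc
Wasl: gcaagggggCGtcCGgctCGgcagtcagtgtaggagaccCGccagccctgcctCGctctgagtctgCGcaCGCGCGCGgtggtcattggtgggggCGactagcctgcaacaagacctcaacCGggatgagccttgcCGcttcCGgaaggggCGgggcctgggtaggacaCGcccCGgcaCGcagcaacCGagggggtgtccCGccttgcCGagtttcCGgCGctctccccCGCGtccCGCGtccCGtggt
Eva1a: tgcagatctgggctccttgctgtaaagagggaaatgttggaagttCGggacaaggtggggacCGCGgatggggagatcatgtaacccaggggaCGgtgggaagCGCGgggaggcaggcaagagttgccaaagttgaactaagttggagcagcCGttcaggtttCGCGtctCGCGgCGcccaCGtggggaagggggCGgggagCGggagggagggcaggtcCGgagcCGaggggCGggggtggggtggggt
Both raised genes have fewer CG dinucleotides in these 250 bases than both lowered genes, which is the order of the group medians. Those medians are over the full window, which adds the 50 bases after the start. In that window Fos held 20, Ddit4l 14, Wasl 36 and Eva1a 21 CG dinucleotides, so Fos and Eva1a hardly differed. The GC content of the printed bases was 58.4% in Fos, 71.2% in Wasl and 65.2% in both Ddit4l and Eva1a, so it did not separate raised from lowered genes.

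Genomic span, the length of the gene from first to last base in the RefSeq table, went with the response. The median difference was -0.45 for the 1425 measured genes under 5 kb, -0.69 for 3750 genes of 5 to 20 kb, -0.93 for 3162 genes of 20 to 50 kb, -1.08 for 1632 genes of 50 to 100 kb and -1.0 for 1381 genes over 100 kb. At least 2-fold lower were 19.4%, 31.1%, 45.6%, 54.5% and 49.7% of these classes, against 39.3% of all measured genes, and 11 of the 19 risers were under 5 kb. Across 11350 genes, which are not independent replicates, Spearman's correlation of difference and span was -0.31 in KO-labelled cells and -0.33 in WT cells, -0.25 after quantile normalization and -0.28 within the 4242 genes of 100 to 400 units. The order of the classes was therefore present within a range of signal, where the medians ran from -0.61 under 5 kb to -1.34 at 50 to 100 kb and -1.11 over 100 kb.

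**Figure D3:**
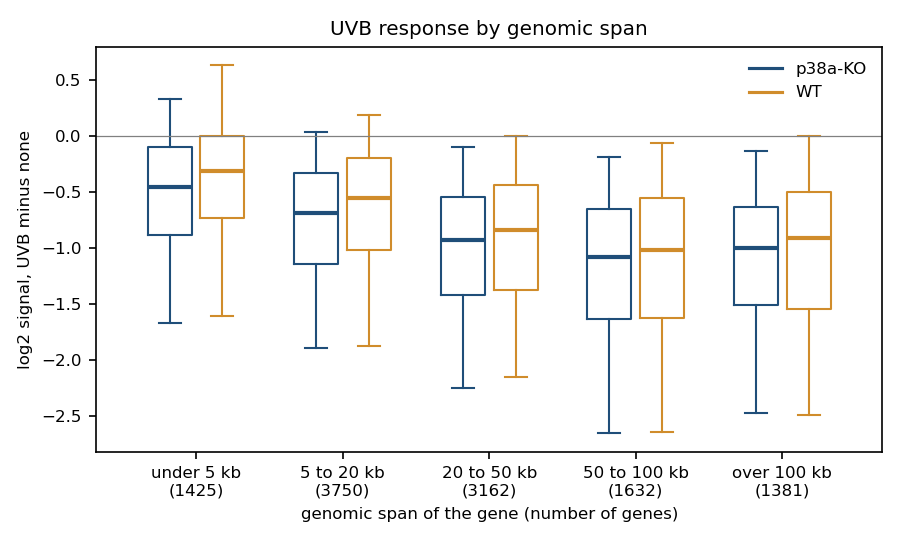
Log2 signal after UVB minus that without irradiation by genomic span of the gene; boxes are quartiles with the median, whiskers the 5th and 95th percentile over genes, KO-labelled in blue and WT in orange. The KO-labelled medians go from -0.45 under 5 kb to -1.08 at 50 to 100 kb and -1.0 over 100 kb.

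Single genes departed from this order. Among genes over 100 kb with both arrays above the floor, the highest were Wnk2 (62.4 to 107 units, 0.77), Samd5, Fhit (72.1 to 108 units, 0.59), Homer2 and Dscam, each with a signal under 110 units; the probe sets of Samd5 and Homer2 disagreed. Among genes under 5 kb, the lowest were Gas1 (-3.58), Fzd7, a Wnt receptor (254 to 32.1 units, -2.99), Artn, a neurotrophic ligand (-2.75), Zfp36l2, an RNA-binding protein that promotes decay (2612 to 392 units, -2.74), and Ccnq, which partners a cyclin-dependent kinase (-2.61). The 100 genes with the highest differences had a median span of 5.63 kb, the 100 with the lowest 56.6 kb, and all measured genes 22.9 kb.

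Gene lists were described by their median and the count of members past 2-fold, to be read against 39.3% of all measured genes at least 2-fold lower, 0.167% higher and a median of -0.82. Of 44 lists, 21 had a median above that of all genes, and 37 had no member 2-fold higher. Members were named where they were among the highest, lowest or brightest of their list; Mapkapk2, Mapkapk3, Fosl1, Mdm2, Gadd45b, Ddb2, Bbc3, Bcl2l1, Lif, Tnfaip3, Tgfa, Egfr, Atf4, Gpx1, Sprr2f, Spink5 and Gapdh fall outside that rule and were chosen after their values were seen. After quantile normalization 8 lists changed side: the prostaglandin, heat shock, basal, suprabasal, stress keratin, cytosolic ribosomal, splicing and reference lists, all above the median gene as deposited, lay below it by up to -0.31. After median centring the p53 list went from -0.06 to 0.14 relative to the median gene.

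**Figure D4:**
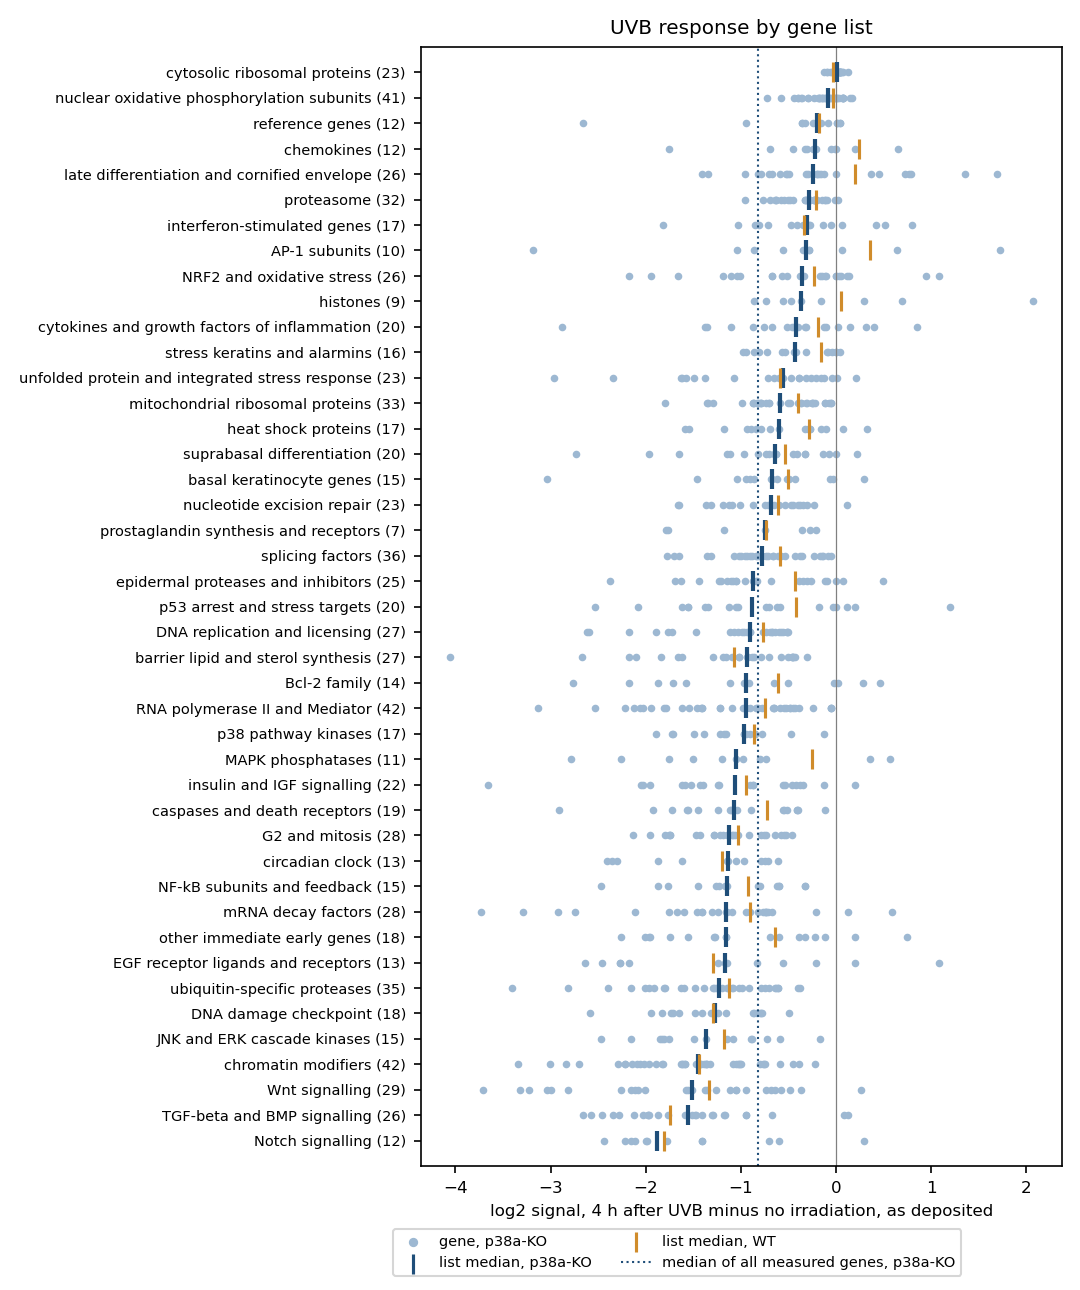
Log2 signal after UVB minus that without irradiation, as deposited, for each measured member (pale points) of the 43 lists with at least 7 such members, given in brackets; bars are list medians in KO-labelled (dark blue) and WT cells (orange), and the dotted line is the median of all genes at -0.82. Cytosolic ribosomal proteins lie near 0 and Notch signalling is lowest at -1.88.

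Among p38 pathway kinases, 8 of 17 members were at least 2-fold lower and none was higher (median -0.97, and -0.86 in WT). Mapk13, which encodes p38delta, the isoform prominent in differentiating keratinocytes, stayed close to its unirradiated level (905 and 828 units, -0.13). Of the activating kinases, Map2k3 went from 1806 to 1054 units (-0.78) and Map2k6 from 331 to 239 (-0.47, beside -1.20 in WT). The ribotoxic stress kinase Map3k20 went from 1749.6 to 972 units (-0.85), and the downstream kinases Mapkapk2 and Mapkapk3 from 468 to 206 (-1.18) and from 861 to 439.5 units (-0.97). The adaptor Tab1 was lowest, from 125 to 33.9 units (-1.89). In the JNK and ERK cascades 10 of 15 were at least 2-fold lower (median -1.37), with Map2k2 (681 to 603 units, -0.17) the highest and Map3k3 (208 to 37.5 units, -2.47) the lowest.

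MAPK phosphatases, which switch these kinases off, split in both genotypes: 6 of 11 were at least 2-fold lower (median -1.05, and -0.25 in WT). Dusp6, specific for ERK, went from 245 to 363 units (0.57, and 1.46 in WT), and Dusp1, which acts on p38 and JNK, from 429 to 552 units (0.36, and 1.25 in WT). Dusp10 and Dusp16, which act on p38 and JNK, went from 241 to 50.2 (-2.26) and from 442 to 64.4 units (-2.78). No phosphatase passed 2-fold upward in KO-labelled cells, and 2 did in WT cells.

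AP-1 subunits lay above the median gene (median -0.32; 0.43 after quantile normalization), with 1 of 10 at least 2-fold higher and 2 lower. Beside Fos, Atf3, a stress-induced repressor, went from 241 to 375 units (0.64, and 0.47 in WT). Jun, Jund and Junb differed little, with 1848 and 1524 (-0.28), 2397 and 1977 (-0.28), and 403 and 421 units (0.06). Fosl1 went from 265 to 207 units (-0.35) beside a WT difference of 1.02, and Fosl2 from 1520.2 to 168 units (-3.18, and -3.24 in WT). Members of 1 family thus ranged from 1.73 to -3.18.

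Other immediate early genes had 10 of 18 members at least 2-fold lower and none higher (median -1.16). Egr1, a zinc finger factor of the serum response, was highest, from 503 to 845 units (0.75, and 0.50 in WT). Klf4, a factor of the epidermal barrier, and Ier3 stayed near their starting signal (2253 and 2083, and 2853 and 2178 units). Myc was lowest, from 1348 to 281 units (-2.26), followed by Ccn2, a matricellular protein (2063 to 512 units, -2.01, beside -0.74 in WT), and Klf6 (1420 to 364 units, -1.96).

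Of the p53 arrest and stress targets, 1 of 20 was higher and 10 were lower by 2-fold (median -0.88, and -0.42 in WT). Besides Gadd45a, Cdkn1a, the p21 inhibitor of cyclin-dependent kinases, went from 3614 to 3937 units (0.12, and 0.88 in WT), with probe sets that disagreed in sign. Perp, a desmosomal target, and Ccng1 stayed at their level (8671 and 8694, and 4481 and 4403 units). Mdm2, the ubiquitin ligase of p53, went from 829 to 283 units (-1.55), Plk2 from 3201 to 1041 (-1.62), Ppm1d, the phosphatase Wip1, from 212 to 50.3 (-2.08) and Gadd45g from 765 to 132 units (-2.53). The 3 Gadd45 genes on the array therefore went apart, with Gadd45b at -1.05.

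Nucleotide excision repair genes had 8 of 23 members at least 2-fold lower and none higher (median -0.68). Xpc, the damage sensor of the global genome branch, went from 139 to 152 units (0.12), while the WT difference was -1.49. Ddb2, the other sensor, went from 159.6 to 122 units (-0.38) and Pcna, the sliding clamp, from 6681 to 5433 units (-0.30). Ercc2, a helicase of TFIIH, and Uvssa, of the transcription-coupled branch, were lowest, from 112 to 35.5 (-1.66) and from 98.5 to 31.4 units (-1.65). DNA damage checkpoint genes lay lower, with 11 of 18 at least 2-fold lower (median -1.27): the kinase Atm went from 275 to 72.0 units (-1.94) and Atr from 196 to 114 units (-0.78), and the clamp loader Rad17 from 479 to 79.3 units (-2.59).

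In the Bcl-2 family 6 of 14 members were at least 2-fold lower and none higher (median -0.94). Pmaip1, the death-promoting Noxa, stayed at its level (2558 and 2529.7 units), whereas Bbc3, or Puma, went from 176 to 53.6 units (-1.71). Of the survival members, Mcl1 went from 2435 to 1129.8 units (-1.11, beside -0.50 in WT), Bcl2l1 from 332 to 111 (-1.58) and Bcl2 from 154 to 34.2 units (-2.17). Bid, which links death receptors to mitochondria, was lowest, from 530.1 to 78.3 units (-2.76). Of caspases, death receptors and their regulators 11 of 19 were at least 2-fold lower (median -1.07), among them Apaf1, the apoptosome scaffold (338 to 45.1 units, -2.91), and Cflar, an inhibitor of caspase-8 (234 to 70.9 units, -1.72), while Cycs, cytochrome c, went from 6626 to 6082 units (-0.12).

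Chemokines lay above the median gene (median -0.23; 0.75 after quantile normalization), with none of 12 at least 2-fold higher and 1 lower. Cxcl2, a neutrophil attractant, went from 162 to 255 units (0.65), Ccl20 from 79.1 to 90.5 (0.20), and Cxcl1 was at 764 units on both arrays; the WT differences of these 3 were 1.96, 1.45 and 1.11. Cxcl3 went from 83.9 to 18.5 units, at least 3.37-fold lower, with 0.75 in WT. In WT cells 3 of the 12 were at least 2-fold higher and the list median was 0.24; the difference between genotypes was not tested.

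Among cytokines and inflammatory growth factors 4 of 20 were at least 2-fold lower and none higher (median -0.42). Nppb, a natriuretic peptide, was the highest, from 757 to 1368 units (0.85, and 2.84 in WT). Tnf was near the floor, at 32.4 and 40.4 units (0.32, and 1.95 in WT), and Lif was at 61.9 and 62.7 units. Edn1, endothelin-1, went from 463 to 182 units (-1.35) and Il24 from 219 to 84.1 units (-1.38), beside WT differences of 0.42 and 0.36. Csf1, the macrophage growth factor, went from 186 to 25.3 units (-2.88, and -2.33 in WT). NF-kB subunits and feedback inhibitors had 8 of 15 members lower (median -1.15): Nfkbia, which encodes IkB-alpha, went from 5036 to 2151 units (-1.23) and Tnfaip3 from 298 to 124 units (-1.26).

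The mRNA decay factors had 16 of 28 members at least 2-fold lower and none higher (median -1.15). Zfp36, or tristetraprolin, a target of MK2 that destabilises inflammatory messages, was at 475 and 519 units (0.13), beside a WT difference of 1.88, and Zfp36l1 went from 1689 to 2539.9 units (0.59, and 1.14 in WT). The third family member, Zfp36l2, was at -2.74. Cnot2, of the deadenylase complex, went from 552 to 73.2 units (-2.92) and the translational repressor Pum2 from 894 to 91.4 units (-3.29). Of prostaglandin genes 3 of 7 were at least 2-fold lower: Ptgs2, the inducible cyclooxygenase, was at 1778 and 1535 units (-0.21), with 0.95 in WT, and its partner synthase Ptges went from 638 to 184 units (-1.79).

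Ligands and receptors of the EGF receptor family differed in response. Beside Hbegf, the ligands Ereg and Epgn were at 144 and 165 (0.20) and at 2349 and 2037 units (-0.21), with WT differences of 1.69 and 0.91, while the ligands Tgfa and Nrg1 went from 229.6 to 47.7 (-2.27) and from 155 to 16.7 units (at least 6.23-fold lower). The receptors Egfr and Erbb2 went from 767 to 170.5 (-2.17) and from 226 to 46.8 units (-2.27), and the receptor's feedback inhibitor Lrig1 from 527 to 95.7 units (-2.46). In all, 8 of 13 were at least 2-fold lower and 1 higher (median -1.17).

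Interferon-stimulated genes lay above the median gene (median -0.30; 0.71 after quantile normalization), with 2 of 17 at least 2-fold lower and none higher. Ifi27 went from 237 to 318 units (0.42) and Irf7 from 20.9, below the floor, to 43.5 units, while Stat2 went from 111 to 31.4 units (-1.82). Among heat shock proteins 3 of 17 were at least 2-fold lower (median -0.60): the inducible Hspa1a went from 742 to 929 units (0.33) and the constitutive Hspa8 from 10141 to 3492 units (-1.54). The unfolded protein and integrated stress response list had 8 of 23 lower (median -0.56), with the chaperone Hspa5 at 8026 and 8066 units, Atf4 at 4424 and 3378, and the kinase Eif2ak3, or PERK, from 262 to 33.7 units (-2.96).

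Among NRF2 and oxidative stress genes, which make and use glutathione and thioredoxin, 1 of 26 was at least 2-fold higher and 7 were lower (median -0.35). Txnip, the inhibitor of thioredoxin, went from 263 to 509 units in KO-labelled cells (0.95) and had a WT difference of -1.14, so the directions were opposite; this was not tested. The metallothionein Mt2 and glutathione peroxidase Gpx1 were at 6242 and 6778, and at 5732 and 5927 units. Txnrd1 and Gclc, of thioredoxin and glutathione metabolism, went from 1711 to 446 (-1.94) and from 1236 to 391 units (-1.66). Nfe2l2 itself, the gene of NRF2, went from 1676 to 369 units (-2.18) on its brightest probe set and from 19.9 to 62.0 units on the other, so its direction depends on the probe set.

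Basal keratinocyte genes had 3 of 15 members at least 2-fold lower and none higher (median -0.67; -0.11 after quantile normalization). The keratin genes Krt5 and Krt14 kept their signal, the hemidesmosome gene Col17a1 went from 3794 to 2698 units (-0.49), and Trp63, the transcription factor of the basal layer, went from 1931 to 236 units (-3.04, and -3.48 in WT). Suprabasal genes had 5 of 20 lower (median -0.64; -0.12 after quantile normalization): Krt10 and Krt1 were at 1169.9 and 1361 (0.22), and at 1814 and 1730.3 units (-0.07), with WT differences of -0.33 and -0.86. The tight junction gene Cldn1 went from 3097 to 985 units (-1.65) and the transcription factors Ovol1 and Grhl3 from 438 to 113 (-1.96) and from 359.7 to 54.0 units (-2.73).

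Late differentiation and cornified envelope genes included 2 of the 19 risers, and 2 of 26 were at least 2-fold lower (median -0.24; 0.29 after quantile normalization). Beside Lce3c and Lce3f, Lce3b went from 33.8 to 58.3 units (0.79), Sprr2f from 111 to 184 (0.73) and Sprr2h from 1765 to 2406 units (0.45). The precursors Ivl and Lce1h went from 307 to 121 (-1.34) and from 239 to 90.1 units (-1.41). In WT cells 8 of the 26 were at least 2-fold higher and the median was 0.20; these genes are near-identical in sequence within their families, so a probe set may read more than 1 of them. Among stress keratins and alarmins none of 16 passed 2-fold (median -0.43), with Krt6a at 13589 and 13545 units, Krt17 at 11517 and 10899.5, and S100a8 at 518 and 270.1 units (-0.94).

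Epidermal proteases and inhibitors had 11 of 25 members at least 2-fold lower and none higher (median -0.87). Klk7, a kallikrein of desquamation, went from 2066 to 893 units (-1.21, beside -0.21 in WT), its inhibitor gene Spink5 from 339.6 to 159 (-1.10), and Plaur, the urokinase receptor, from 425 to 132 units (-1.69, beside -0.37 in WT). Prss8, the channel-activating protease prostasin, ended just below the floor, from 129 to 24.5 units. Barrier lipid and sterol synthesis genes had 13 of 27 lower (median -0.93): Hmgcs1 and Sqle, of cholesterol synthesis, went from 9100.5 to 2549 (-1.84) and from 3357 to 739.8 units (-2.18), and Ugcg, which makes glucosylceramide, from 207 to 32.5 units (-2.67), while the desaturase Scd2 went from 11492 to 9355 units (-0.30).

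As deposited, Notch, TGF-beta and BMP, and Wnt signalling were the 3 lowest lists. After quantile normalization chromatin modifiers (-0.49) and the EGF receptor list (-0.44) lay below Wnt (-0.43). With centring chromatin modifiers (-0.32) also lay below Wnt (-0.28). The median spans of the Notch, TGF-beta and BMP, and Wnt lists were 28.5, 65.1 and 70.0 kb, against 22.9 kb for all measured genes. The part of span was not tested. In Notch signalling 9 of 12 members were at least 2-fold lower (median -1.88, and -1.81 in WT; -0.88 after quantile normalization). The receptor Notch1, the ligands Jag1 and Dll1 and the DNA-binding effector Rbpj went from 1710.1 to 428, from 996 to 251 (-1.99), from 311 to 57.1 (-2.44) and from 235 to 50.5 units (-2.22). The feedback gene Nrarp was the exception, from 649.7 to 797 units (0.29). In TGF-beta and BMP signalling 21 of 26 were lower (median -1.55), among them the receptors Tgfbr2 (3742 to 629 units, -2.57), Acvr1b (-2.66) and Bmpr1a (873 to 214 units, -2.03), while Id2, a target, was at 140.2 and 148 units. In Wnt signalling 21 of 29 were lower (median -1.51): beside Lrp6, Axin1, a scaffold of the beta-catenin destruction complex, was at -3.32 and Lgr4, an R-spondin receptor, went from 553 to 59.1 units (-3.23), but Ctnnb1, beta-catenin, went from 6842 to 5285 units (-0.37).

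Insulin and IGF signalling had 11 of 22 members at least 2-fold lower (median -1.06), with Irs1 lowest and the binding protein Igfbp2 at 5758 and 5277 units (-0.13). Circadian clock genes had 8 of 13 lower (median -1.13): Clock went from 313 to 58.9 (-2.41), Arntl from 196 to 39.8 (-2.30) and Cry1 from 329 to 64.6 units (-2.35, beside -1.43 in WT), whereas Nr1d2 went from 189 to 115 units (-0.71). DNA replication genes had 10 of 27 lower (median -0.90), with Mcm7 at -0.50 and the S-phase cyclin Ccne2 (374 to 60.7 units) at -2.62. G2 and mitosis genes had 19 of 28 lower (median -1.12), from Mad2l1 (-0.46) to the kinases Aurka (1002 to 259 units, -1.95) and Ttk (300.2 to 68.4 units, -2.13).

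As deposited, cytosolic ribosomal proteins and oxidative phosphorylation subunits had the highest medians of the lists with at least 7 measured members. After quantile normalization these 2 lists were at 0.03 and 0.28, under chemokines at 0.75, but that scaling by itself brings the medians of bright genes close to 0. With median centring they were at 1.16 and 1.05, above chemokines at 0.89. The medians and counts past 2-fold that follow were taken without rescaling. None of 23 cytosolic ribosomal protein genes passed 2-fold, and all lay between 0.13 (Rps18) and -0.13 (Rpl37), with a median of 0.01. Nuclear-encoded oxidative phosphorylation subunits had a median of -0.08 and none of 41 past 2-fold, from Ndufb7 (2216 to 2491 units, 0.17) to Cox7c (61.0 to 37.0 units, -0.72). Proteasome subunits had a median of -0.28 and none of 32 past 2-fold. Mitochondrial ribosomal protein genes were lower, with a median of -0.59 and 4 of 33 at least 2-fold lower. Genes over 6400 units, where most of the ribosomal members lay, had a median of -0.02 whatever their list, and of 9 histone genes only H3f3b passed 2-fold (median -0.37). Of 12 reference genes, Actb and Gapdh were at 12738 and 13099, and at 12642 and 12753 units, while Tbp, the TATA-binding protein, went from 336 to 53.1 units (-2.66, and -2.33 in WT).

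Lists of transcription, splicing and ubiquitin removal differed in how many members were lower, beside 39.3% of all measured genes. Of the chromatin modifiers 33 of 42 were at least 2-fold lower (78.6%; median -1.45, and -1.44 in WT): Hdac1 was at 2087 and 1793 units (-0.22), and the acetyltransferase gene Kat6a and methyltransferase-family gene Kmt2e went from 429 to 53.4 (-3.01) and from 464 to 45.8 units (-3.34). RNA polymerase II and Mediator genes had 18 of 42 lower (42.9%; median -0.94; -0.01 after quantile normalization). The largest polymerase subunit Polr2a was at 211 and 203 units (-0.05, and 0.85 in WT) with probe sets that disagreed, and Cdk7, the kinase of TFIIH, went from 863 to 98.7 units (-3.13). Ubiquitin-specific proteases had 24 of 35 lower (68.6%; median -1.23; -0.09 after quantile normalization), from Usp20 (-0.38) to Usp32 (-3.40). Splicing factors had 8 of 36 lower (22.2%; median -0.78; -0.25 after quantile normalization), from Snrpd3 (2679 to 2589 units, -0.05) to Srsf4 (656 to 192 units, -1.78).

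With no replicate arrays, the agreement of different probe sets of 1 gene is the available measure of technical spread, and it leaves out the spread between cultures. For 5209 genes with at least 2 probe sets at or above the floor, the differences of the 2 brightest lay a median of 0.30 apart on the log2 scale, with a 90th percentile of 0.96, and 93.6% had the same sign. Since 10664 of all 11378 measured genes were below 0, a shared sign is the usual case here and says little about agreement. With both probe sets at 400 units or more the median gap was 0.17 and the 90th percentile 0.48 (1019 genes); with the dimmer one under 100 units it was 0.43 and 1.17 (2377 genes). The differences of Fos (1.73) and, on their brightest probe sets, of the 25 named falls exceed these gaps, while those of the dim genes Rem2 (1.39) and Gstm3 (1.08) lie near the 90th percentile for dim genes. Fos and the falls were picked for their size among all measured genes, so this is no check on them. Fos also has only 1 probe set, and the gaps leave out any error that all probe sets of an array share.

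In 10 genes 1 probe set was at least 2-fold higher after UVB and another at least 2-fold lower, Epc1, Gpr107, Hnrnpab, Lrrc14, Nfe2l2, Nudt21, Rnf144b, Slc6a17, Ubn2 and Zc3h15, which were picked out by this count. Epc1, of an acetyltransferase complex, went from 379 to 48.0 units on 1 probe set and from 65.4 to 133 on another. Other genes were split in part. Gas5, a host gene of small nucleolar RNAs, had 2 probe sets at 5801 and 6326, and at 5777 and 6239 units without and with UVB, and 2 that went from 736 to 68.7 and from 637 to 97.3 units. In Lats2, a kinase of the Hippo pathway, 3 probe sets were lower, from 261 to 20.1, from 235 to 34.9 and from 166 to 44.8 units, and 2 were higher, from 67.3 to 118 and from 31.5 to 60.1 units; the same split was present in WT cells. Wasl, the second largest fall among genes above the floor on both arrays, was at -4.07 on its brightest probe set and at -2.12, -1.62 and -0.51 on its others, so its size but not its direction depends on the probe set.

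**Figure D5:**
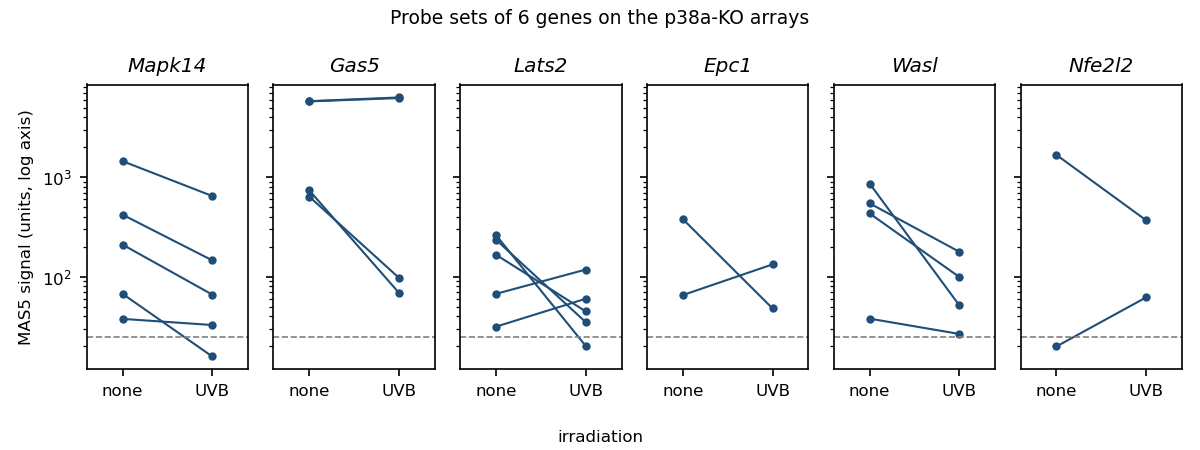
MAS5 signal in units on a log axis of every probe set with a mean at or above the floor for 6 genes, without irradiation and 4 h after UVB on the KO-labelled arrays; each line is 1 probe set and the dashed line is the floor of 24.9 units. The lines of Mapk14 and Wasl all fall, and those of Gas5, Lats2, Epc1 and Nfe2l2 go in both directions.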

How the data were processed

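RNA of 4 cultures, 1 per group, was hybridised to Affymetrix 3′ expression arrays, so the number of arrays, and not depth, limits the precision. The authors deposited 1 linear signal intensity per probe set and array, made with MAS5 per the submitters' processing notes; the scaling target is not given in the sources used here. From these intensities, values under the floor of 24.9 units were raised to it, a gene was read from its brightest probe set with 1 symbol, and log2 differences were taken (Python 3.11.15, pandas 2.3.3, numpy 2.4.6, scipy 1.17.1, matplotlib 3.10.9). A gene counted as higher or lower at 2-fold, and a fold against a value under the floor is a bound. Named genes, gene models left out, were the 25 largest rises and falls above the floor on both arrays with probe sets that agreed, the 10 largest bounds each way, the 3 highest, lowest and brightest members of each list, the 10 genes with most unlike probe sets, and the 5 extremes of the longest and shortest genes. A gene with 1 probe set that reached the floor was kept without a check of agreement. The members and lists were chosen with earlier results of these data known. Of 1229 list entries 1098 were matched to the array. The script was tested on simulated data. Alternatives were 3 scalings, spike-in scaling, other floors, folds and filters, and other ways to join probe sets.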

Additional observations from a re-analysis of the deposited data

Results flagged for a closer look

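Adamtsl4, which encodes a secreted glycoprotein, passed 2-fold in opposite directions in the 2 genotypes. In KO-labelled cells it went from 55.0 to 26.2 units after UVB, a log2 difference of -1.07, and in WT cells from 23.6, below the floor, to 60.2 units, a difference of 1.27. The difference between genotypes was not tested.

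The control probe set at the 5′ end of 18S ribosomal RNA, which the gene comparisons do not use, was at 1232 units on the irradiated KO-labelled array and at 83.9 units without irradiation, beside 70.9 and 128 units in WT cells. The 18S probe sets for the middle and the 3′ end were at 234 and 183 units on the same irradiated array.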

How the results depend on the processing

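No paired analysis was possible because each group has 1 array, and leaving out an array leaves no comparison. In KO-labelled cells, the 19 genes at least 2-fold higher became 476 with quantile normalization, 1015 with median centring, 203 with trimmed mean scaling, 190 with the floor at the 25th percentile, 6 with it at the 75th, 81 at 1.5-fold and 4 at 3-fold. The 4472 lower genes became 933, 738 and 1447 with the 3 scalings, 2197 with the higher floor, 7411 at 1.5-fold and 1839 at 3-fold. In WT cells, the 66 higher genes became 615, 1293, 283, 281, 38, 156 and 22 in the first order, and the 3958 lower genes 1085, 842, 1633, 1855, 6532 and 1694 in the second. The KO-labelled median of -0.82 turned to 0.06 with quantile normalization and 0.28 with centring, and was -0.07 with the trimmed mean, -0.93 with spike-in scaling, -0.41 without a filter and -0.58 with the mean over probe sets. The gap of -0.55 between long and short genes was -0.34 with quantile normalization and -0.25 with the mean over probe sets. Of 44 lists, 21 lay above the median gene, and 13 with quantile normalization or without a filter. Relative to the median gene, 193 of 3699 values of 424 named genes, and the medians of 15 of 44 lists in at least 1 setting, had the other sign; among the 163 genes past 2-fold relative to it, 4 changed sign: Ppm1d (0.03), Ugcg (0.07) and Med23 (0.00) with the floor at the 75th percentile, and Nfe2l2 (0.15) with the mean over probe sets. The causes of these changes were not tested.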

Other observations

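By chromosome, the median log2 difference in KO-labelled cells ran from -0.93 on chromosome 13 (424 genes) to -0.62 on chromosome X (339 genes), where the WT median was -0.53. Long non-coding RNA genes had a median of -0.51 (239 genes), against -0.83 for 11050 protein-coding genes. The median of their mean signals was 38.9 units, against 189.8 units for protein-coding genes. Signals under the floor were raised to it, which caps the falls of dim genes. The smaller fall of the long non-coding RNA genes therefore cannot be read as a weaker response.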
